A study of Homo sapiens with 10 samples.

Results

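The lipase-related gene PNLIPRP3 was examined together with 9 genes that break down, coat or build the triglyceride of lipid droplets, PNPLA2, LIPE, MGLL, PLIN2, PLIN3, DGAT1, DGAT2, G0S2 and HILPDA. The members were taken by gene symbol, 10 of the 22626 rows of the count table, and each of them had a row. The members were chosen by a readout of these same libraries, the difference of their counts between high glucose and control, so that difference is given below as a description, with no p-value for a member and with counts of calls from which nothing is read. ARPE-19, an established human retinal pigment epithelium (RPE) cell line, was kept for 48 h with 37.5 mM glucose in the high glucose (HG) group and with 5.5 mM glucose plus 32 mM mannitol in the control group. Each group has 5 RNA-seq libraries. Both groups were grown in DMEM with fetal bovine serum and antibiotics, and the control medium differed in its mannitol, a sugar alcohol that balances the osmotic load, as well as in its glucose. The effects of glucose and of mannitol therefore cannot be told apart. The labels do not say whether the 5 libraries of a group came from separate cultures, and p-values then measure only the spread between these samples, which may be technical.

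Cells store surplus fatty acid as triglyceride in lipid droplets, which are surrounded by a coat of perilipins. PNPLA2 (adipose triglyceride lipase) removes the first fatty acid from triglyceride, LIPE (hormone-sensitive lipase) acts mainly on the diglyceride that is left, and MGLL (monoglyceride lipase) releases the last fatty acid and glycerol. G0S2 and HILPDA bind and inhibit PNPLA2, PLIN2 and PLIN3 coat the droplets of most cells other than fat cells, and DGAT1 and DGAT2 add the final fatty acid when triglyceride is made. PNLIPRP3 belongs to the family of PNLIP, the lipase of pancreatic juice. In RPE cells, which take up lipid-rich photoreceptor membranes every day, droplets also hold retinyl esters, the stored form of vitamin A.

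PNLIPRP3 and PLIN2 were the members with the largest differences between the groups, and the stretch just before a RefSeq start of each is shown for that reason. The table of RefSeq promoters (GRCh38.p14) held 6 of the 10 members, PNLIPRP3, PNPLA2, LIPE, G0S2, PLIN2 and PLIN3, with 7 windows among them because LIPE had more than 1 start. The window before PNLIPRP3 was chr10:116427597-116427846 on the plus strand, 250 bases with 32.4% GC. The PLIN2 window lies inside the annotated gene, chr9:19108375-19149290, and so not before its outermost start. It had 78.0% GC, and its outer 166 bases are given, chr9:19127577-19127742 on the minus strand. The other 84 bases overlapped an annotated PLIN2 exon and are left out. Both are written 5′ to 3′, with matches to 1 of the motifs searched in capitals.
PNLIPRP3: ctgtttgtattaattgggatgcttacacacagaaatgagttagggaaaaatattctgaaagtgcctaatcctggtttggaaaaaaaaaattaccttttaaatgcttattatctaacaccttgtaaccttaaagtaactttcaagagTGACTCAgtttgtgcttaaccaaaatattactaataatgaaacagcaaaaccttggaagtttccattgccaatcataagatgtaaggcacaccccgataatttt
PLIN2: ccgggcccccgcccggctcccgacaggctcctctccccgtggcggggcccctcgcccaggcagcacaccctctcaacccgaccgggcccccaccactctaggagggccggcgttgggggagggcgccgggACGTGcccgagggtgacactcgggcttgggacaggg
The 5 motifs searched on both strands were CACGTG (E-box), TGANTCA (AP-1 core), ACGTG (HIF core, which lies inside an E-box), TGATGNAAT (an ATF4 composite element) and a PPAR direct repeat (AGGTCA repeated with 1 base between). The capitals in the PNLIPRP3 window mark a TGANTCA match that began 104 bases before the start, and 6.57% of all 35116 promoters of the same length held this motif. The capitals in the PLIN2 stretch mark an ACGTG match 120 bases before the start, a motif found in 18.5% of promoters. A CACGTG match lay 69 bases before the PLIN2 start, in the part not printed, and this motif was found in 6.34% of promoters. Windows of PNPLA2, LIPE, G0S2 and PLIN3 held no match to any of the 5. These are matches of letters in a window, and binding was not measured.

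Total counts per library ranged from 32448991 to 45864176, and after edgeR's filter on low counts 14936 rows were tested, 9 of the 10 members among them. All 20 pairs of libraries within a group differed by more than sampling noise (chi-square per gene between 13.2 and 78.7). Control_2 and HG_1 stood apart from the other 8 libraries. The slope of their log2 CPM (counts per 1000000 of the normalized library total) on the GC content of the transcript was 0.170 and 0.188 log2 units per 10 percentage points, against between -0.0916 and -0.00519 in the others, and results that rest on these libraries are given with and without them. Both checks of the labels, TXNIP and ARRDC4, which glucose induces, were higher in every HG library than in every control library, by 3.15 and 0.74 log2 units. Of 13 RPE markers, 10 passed the filter, while TTR was at 0 counts in all libraries and RPE65 at no more than 6 counts. The summed RPE marker level was between 2835 and 3592 CPM in control and between 1798 and 2472 CPM in HG libraries, of which the keratins KRT8 and KRT18 made up the most. Of the 10 that passed, PMEL, KRT8 and KRT18 were called lower (edgeR adjusted p under 0.05) and 0 higher. Of all rows tested, 7.8% were called lower and 7.62% higher. RLBP1, LRAT, TYRP1, MITF, OTX2 and SERPINF1 were not called. The largest RPE marker difference was that of BEST1 (-4.97 log2 units, not called), which had 8707 counts in control_1 and 18223 in control_4, between 24 and 234 in the other 3 control libraries and between 44 and 300 in HG libraries. TYR, which did not pass the filter, had between 4 and 34 counts in control and at most 4 in HG libraries. Without BEST1 the summed RPE marker level was between 2834 and 3455 CPM in control and between 1792 and 2464 CPM in HG libraries. The part of these markers in the results below was not tested. No adipocyte marker of 7 passed the filter (LEP, CIDEC and CIDEA at 0, summed level between 0.216 and 0.516 CPM in control and between 0.182 and 0.735 CPM in HG).

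PNLIPRP3 (ENSG00000203837) lies on chr10:116427867-116477957, plus strand, of GRCh38, with a single annotated transcript of 2354 bases in 12 exons. It was at the edge of detection in control cells and clearly counted under high glucose. The control libraries held 8, 29, 23, 18 and 28 counts, and HG_1 to HG_5 held 188, 196, 210, 100 and 91. The lowest control count, 8, carries an exact 95% Poisson interval of 3.45 to 15.8 counts, and the lowest HG count, 91, carries an interval of 73.3 to 112, both for counting error only. Every HG library was thus above every control library, and within the HG group HG_4 and HG_5 lay below the other 3.

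After normalization PNLIPRP3 was at 0.243, 0.650, 0.553, 0.545 and 0.629 CPM in control_1 to control_5. HG_1 to HG_5 had 4.88, 4.75, 4.68, 3.04 and 2.77 CPM. The mean was 0.524 ± 0.164 CPM in control and 4.02 ± 1.03 CPM in high glucose (SD, n = 5 each), a difference of 2.93 log2 units (SE 0.286), or 7.60-fold. Its absolute log2 difference was larger than that of 99.9% of the tested rows, while its mean level was above that of only 13.2% of them. On the deposited FPKM scale, which divides by transcript length and library size, it went from 0.194 ± 0.0638 to 1.57 ± 0.394. The log2 difference was between 2.75 and 3.04 with each library left out in turn and 2.94 without control_2 and HG_1. It was 1.09 on log2(FPKM + 1), a scale that understates the change of genes near 0. In bulk RNA, more cells expressing a gene and more RNA per cell cannot be told apart.

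Since the counting program and annotation are not known, the sharing of PNLIPRP3 sequence with other genes was looked up in GENCODE. None of the 2255 windows of 100 bases along its transcript occurs in a transcript of another gene, and the only gene overlapping it, the pseudogene HMGB3P8 on the other strand, has no row. Its relatives downstream on the same chromosome were at or near 0, with 0 counts of PNLIP and PNLIPRP2 in all 10 libraries and at most 2 counts of PNLIPRP1 in any. A count of 0 allows up to 3 counts, which is between 0.0669 and 0.0912 CPM in these libraries. Upstream, CCDC172 had at most 3 counts in a library and ATRNL1 differed by 0.17 log2 units (adjusted p = 0.317). GFRA1, a co-receptor for glial cell line-derived neurotrophic factor whose gene ends 154400 bases before PNLIPRP3, fell by 0.20 log2 units (edgeR adjusted p = 0.0331). Of 8 pancreatic acinar markers, 6 were at 0 in all libraries, CTRB1 had at most 5 counts in a library, and CEL, which alone passed the filter, differed by -0.02 log2 units. Of 7 keratinocyte markers, KRT1, KRT5 and KRT14 were at 0 in all libraries and LOR had no row, while 3 passed the filter. These were KRT10, at between 21.0 and 29.5 CPM in control and between 23.1 and 30.3 CPM in HG libraries, IVL, with a log2 difference of -0.20 and overlapping groups, and TP63, which fell by 1.55 log2 units. The summed keratinocyte level was between 29.4 and 37.6 CPM in control and between 30.0 and 36.4 CPM in HG libraries, and the part of acinar or keratinocyte markers in the PNLIPRP3 values was not tested.

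**Figure D1:**
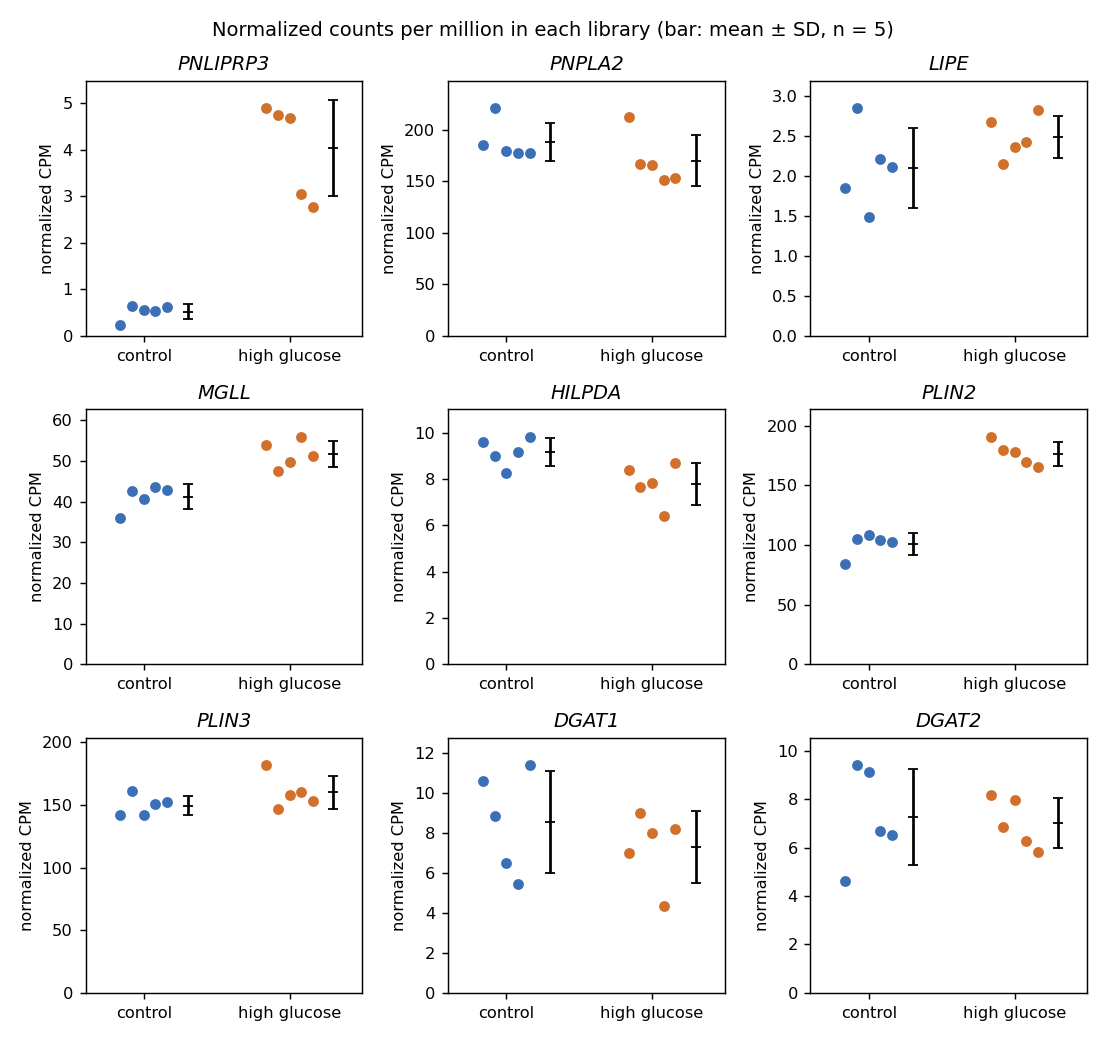
Normalized CPM (linear axes from 0) of the 9 detected genes in the 5 control and 5 high glucose libraries, in the order 1 to 5 from left to right within a group, with the mean ± SD (n = 5) beside them. PNLIPRP3, MGLL and PLIN2 show no overlap between the groups, and in PNPLA2 control_2 and HG_1 stand above the other libraries of their group.

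None of the 5 genes whose pattern over the 10 libraries was most like that of PNLIPRP3 was on the lipid storage list. Likeness was the root mean square difference of mean-centred log2 CPM over the 10 libraries, among 13420 rows with a symbol, whose median was 1.49. FCRLA, an Fc receptor-like protein, was nearest at 0.508, and MMP1, the interstitial collagenase, followed at 0.519. TXNIP, a glucose-induced arrestin family member, was next at 0.520, CPEB1, an RNA-binding regulator of polyadenylation, was at 0.619 and ATP6V0D2, a proton pump subunit, was at 0.624. Of the other members, PLIN2 came nearest (1.07, place 97), MGLL was at place 949 and DGAT1 at place 11525. The measure includes the difference between the groups, so genes with a much smaller difference than PNLIPRP3 could not come near it. The 5 genes differed by between 1.71 and 3.15 log2 units, and no tested gene of the list by more than 0.98. The absence of list genes and the places of the members therefore largely restate the sizes of their differences. All of these values come from the same 10 libraries and describe likeness of the mean-centred pattern only, not of level.

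The droplet lipases had separate patterns. PNPLA2 (ENSG00000177666, chr11:818902-825573) was at 185, 221, 179, 177 and 177 CPM in control_1 to control_5. The HG libraries, in the same order, were at 212, 166, 165, 152 and 153 CPM. Control_2 and HG_1 were each far above the rest of their group, and with them the groups overlapped. The means were 188 ± 18.6 and 169.7 ± 24.8 CPM (SD, n = 5), a difference of -0.15 log2 units (SE 0.0985) with a 95% interval from -0.34 to 0.05. Without control_2 and HG_1, the 4 control libraries lay between 177 and 185 CPM and the 4 HG libraries between 152 and 166 CPM, with no overlap and a difference of -0.17. The difference was -0.24 without HG_1 alone, -0.08 without control_2 alone and -0.12 after the GC and length trends of the libraries were removed. The PNPLA2 transcript has 64.9% GC, more than 95.7% of the 13538 tested rows with a GC value (median 48.5%), and the part of the GC trend in these values was not tested further.

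MGLL (ENSG00000074416, chr3:127689062-128052190) was at 36.1, 42.7, 40.6, 43.6 and 42.8 CPM in control_1 to control_5. In HG_1 to HG_5 it was at 54.0, 47.6, 49.8, 55.9 and 51.1 CPM. All HG libraries were above all control libraries, and HG_1 did not stand apart here. The difference was 0.33 log2 units (SE 0.0658), 1.26-fold, and between 0.28 and 0.36 with each library left out (0.33 without control_2 and HG_1). MGLL shares bases with SEC61A1 and KBTBD12 on the other strand, and whether the counting used strand is not given in the sources used here. On the FPKM scale the ratio of MGLL to PNPLA2 was 0.126 ± 0.0140 in control and 0.176 ± 0.0251 in high glucose, with no overlap (0.111 to 0.140 against 0.145 to 0.210). The ratio of LIPE to PNPLA2 overlapped (0.00615 to 0.0101 in control against 0.00851 to 0.0144 in high glucose). That of DGAT2 to DGAT1 overlapped as well (0.662 to 2.12 against 1.07 to 2.16).

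LIPE (ENSG00000079435, chr19:42401507-42427426) was low. It was at 1.85, 2.85, 1.49, 2.21 and 2.11 CPM in control_1 to control_5 and at 2.68, 2.16, 2.36, 2.43 and 2.83 CPM in HG_1 to HG_5. The highest control library, control_2, was above all HG libraries, and the difference of 0.24 log2 units (SE 0.182) had a 95% interval from -0.11 to 0.60. It was 0.38 without control_2, 0.35 without control_2 and HG_1 and 0.14 without control_3.

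**Figure D2:**
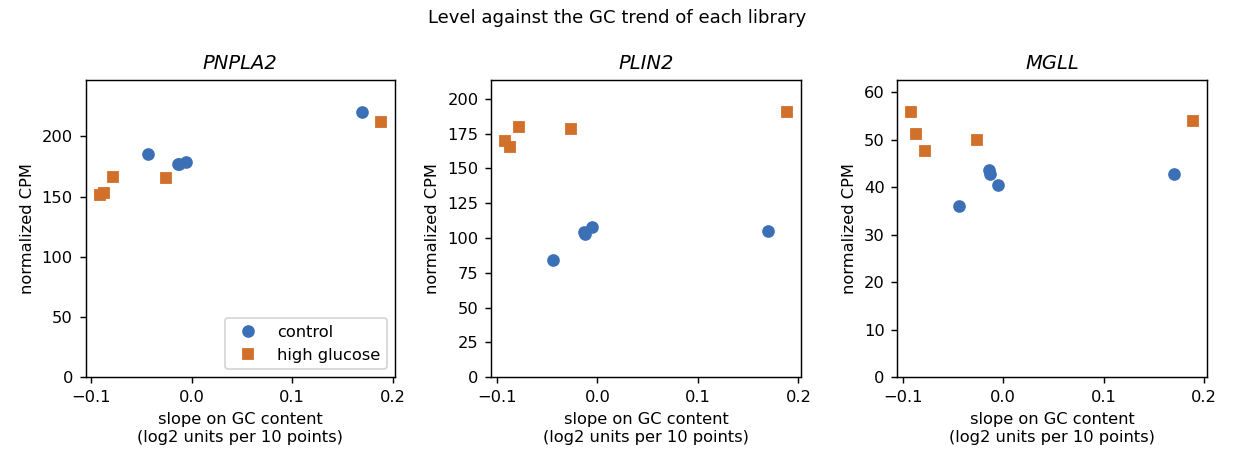
Normalized CPM of PNPLA2, PLIN2 and MGLL (y axis, from 0) against each library's slope of log2 CPM on transcript GC content (x axis, log2 units per 10 percentage points), with a point for each library. Control_2 (slope 0.170) and HG_1 (slope 0.188) lie on the far right and hold the highest PNPLA2 levels of their groups, 221 and 212 CPM, whereas PLIN2 and MGLL separate by group on both sides of the plot.

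Of the PNPLA2 inhibitors, G0S2 (ENSG00000123689, chr1:209675420-209676388) was listed at 0 counts and 0 FPKM in all 10 libraries. It was not tested, and levels below the limit of 3 counts per library given above were not detectable. HILPDA (ENSG00000135245, chr7:128455849-128458418) was at 9.61, 8.99, 8.25, 9.17 and 9.81 CPM in control_1 to control_5. HG_1 to HG_5 were at 8.39, 7.64, 7.82, 6.38 and 8.67 CPM. The groups overlapped through control_3, HG_1 and HG_5, and HG_4 was the lowest library. The difference was -0.24 log2 units (SE 0.0963) with a 95% interval from -0.43 to -0.05, which is not adjusted for the number of rows and leaves out 0, and it was not called. It lay between -0.28 and -0.17 with each library left out and was -0.27 without control_2 and HG_1. In deposited FPKM the same gene did not overlap, with control libraries between 6.48 and 6.96 and HG libraries between 4.39 and 6.31. Of the windows of 100 bases along its transcript, 9.76% also occur in overlapping transcripts of AC010655.2 and AC010655.4, which have no row. ABHD5, the coactivator of PNPLA2, differed by 0.12 log2 units (adjusted p = 0.292).

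Among the coat proteins, PLIN2 was higher under high glucose and PLIN3 overlapped between the groups. PLIN2 (ENSG00000147872, chr9:19108375-19149290) was at 84.4, 105, 108, 104 and 103 CPM in control_1 to control_5. In HG_1 to HG_5 it was at 191, 179.6, 178, 169 and 165 CPM. The lowest HG library was above the highest control library by a wide margin, and control_1 was below the other 4 control libraries. The means were 101 ± 9.47 and 177 ± 9.95 CPM (SD, n = 5), a difference of 0.81 log2 units (SE 0.0700), 1.75-fold. It was between 0.75 and 0.83 with each library left out and 0.79 without control_2 and HG_1.

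PLIN3 (ENSG00000105355, chr19:4838341-4867768) was at 142, 161, 142, 151 and 152 CPM in control_1 to control_5. Its HG values were 182, 147, 158, 160.3 and 153 CPM. Only HG_1 exceeded all control libraries, and the difference was 0.10 log2 units (SE 0.0613, 95% interval from -0.02 to 0.22). It was 0.05 without HG_1 and 0.08 without control_2 and HG_1. On the FPKM scale the ratio of PLIN2 to PLIN3 RNA was 0.765 ± 0.0659 in control and 1.25 ± 0.104 in high glucose. This ratio largely restates the PLIN2 difference. Its 5 control values lay between 0.691 and 0.871 and its 5 HG values between 1.14 and 1.40. Other perilipins were scarce. PLIN1, the coat of fat cells, had at most 14 counts in a library, and PLIN4 was at 1.30 ± 0.102 CPM in control and 0.982 ± 0.178 CPM in high glucose (edgeR adjusted p = 0.158, groups not overlapping).

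The enzymes of the last step of triglyceride synthesis varied within the groups more than between them. DGAT1 (ENSG00000185000, chr8:144314584-144326910) was at 10.6, 8.86, 6.52, 5.45 and 11.4 CPM in control_1 to control_5. The HG libraries were at 6.99, 9.04, 8.00, 4.38 and 8.21 CPM. HG_4 was the lowest library and control_5 the highest, with the rest mixed, and the difference was -0.23 log2 units (SE 0.237, 95% interval from -0.69 to 0.24). It was -0.09 without HG_4, -0.10 without control_5, -0.14 without control_1, -0.35 without control_4 and -0.20 without control_2 and HG_1. Of its windows of 100 bases, 6.89% occur also in AC233992.1, and HSF1 overlaps it on the other strand. DGAT2 (ENSG00000062282, chr11:75759512-75801535) was at 4.64, 9.40, 9.11, 6.69 and 6.51 CPM in control_1 to control_5. In HG_1 to HG_5 it was at 8.18, 6.84, 7.98, 6.26 and 5.81 CPM. The HG values lay inside the range of the control values. The difference was -0.05 log2 units (SE 0.188, 95% interval from -0.42 to 0.32), and it turned to 0.06 without control_2, 0.04 without control_3 and 0.01 without HG_5. The lowest value with a library left out was -0.18, without control_1, and without control_2 and HG_1 it was under 0.01 log2 units in size. The coefficient of variation in control was 29.9% for DGAT1 and 27.3% for DGAT2, against 5.26% for PLIN3 and 7.40% for MGLL.

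Counted over the members, 3 of the 9 tested were called higher by edgeR (adjusted p under 0.05), PNLIPRP3, PLIN2 and MGLL, 0 were called lower and 6 were not called. Of all 14936 rows tested 15.4% were called, 7.62% higher and 7.8% lower. The same 3 were the members whose groups did not overlap in CPM with HG above, which held for 6.74% of all rows tested. Because this contrast chose the members, nothing is read from these counts. The median log2 difference was 0.10 over the 9 members and 0.00 over all rows tested.

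**Figure D3:**
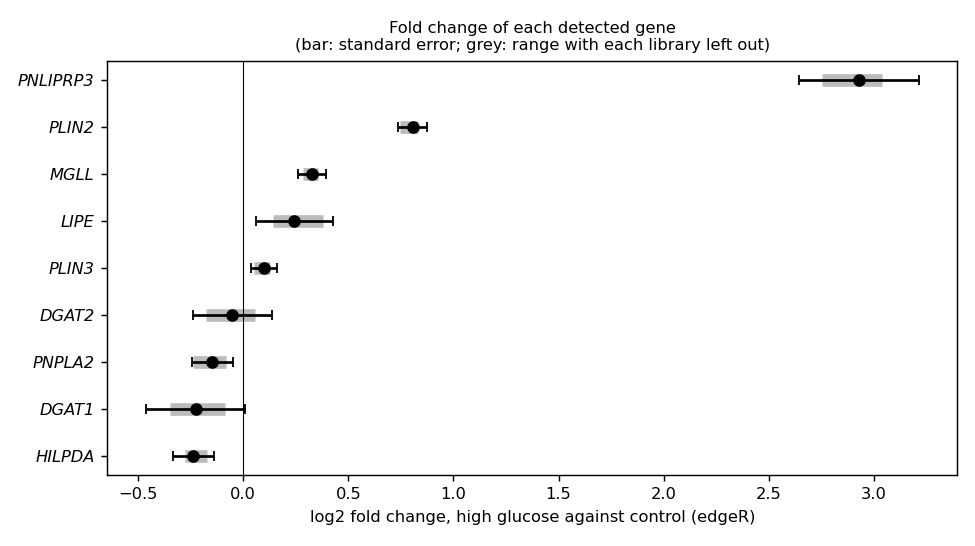
Log2 fold change of high glucose against control (x axis) for the 9 detected genes, from edgeR, with the standard error as the black bar and the range with each of the 10 libraries left out in turn as the grey band. PNLIPRP3 lies at 2.93, PLIN2 at 0.81 and MGLL at 0.33, and the other 6 genes lie between -0.24 and 0.24.

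Levels of different genes were compared on the deposited FPKM scale. In control cells the order was PNPLA2 (71.7 ± 5.98), PLIN3 (64.5 ± 4.03), PLIN2 (49.3 ± 4.66), MGLL (8.99 ± 0.658) and HILPDA (6.71 ± 0.195). Then came DGAT2 (2.78 ± 0.739), DGAT1 (2.16 ± 0.648), LIPE (0.591 ± 0.151), PNLIPRP3 (0.194 ± 0.0638) and G0S2 at 0. The ranges of PNPLA2 and PLIN3 overlapped, as did those of DGAT2 and DGAT1, and the other neighbours in this order did not overlap. Under high glucose PLIN2 (86.8 ± 3.69) was first, above every value of PLIN3 (69.9 ± 4.58) and PNPLA2 (65.2 ± 7.99), which overlapped with each other. PNLIPRP3 (1.57 ± 0.394) moved above LIPE (0.692 ± 0.0950) and came close to DGAT1 (1.86 ± 0.470), while MGLL, HILPDA and DGAT2 kept their places. The orders by mean and by median were the same in both groups.

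**Figure D4:**
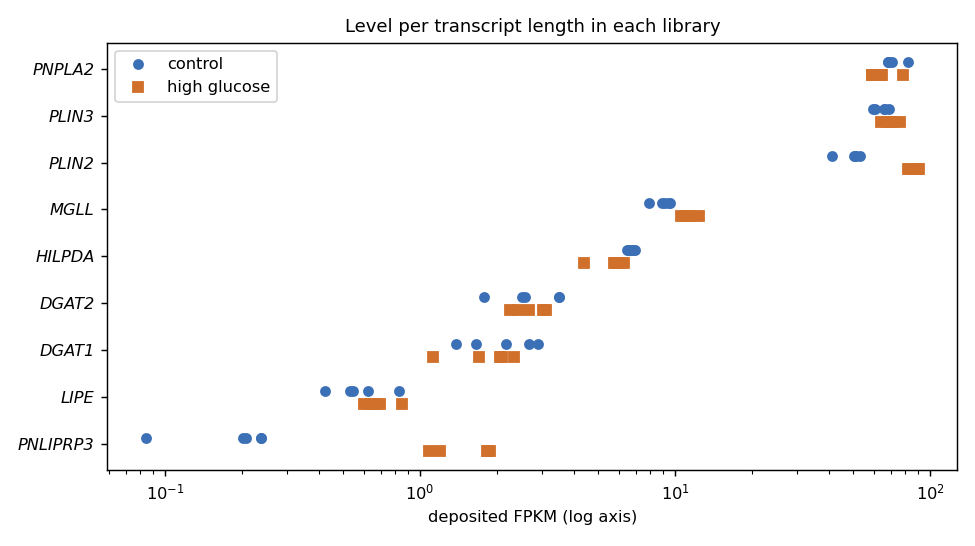
Deposited FPKM values of the 9 detected genes (x axis, logarithmic) in each control library (circles) and each high glucose library (squares), ordered by their control mean. PLIN2 moves from between 41.2 and 53.2 to between 81.7 and 90.3, past PLIN3 and PNPLA2, and PNLIPRP3 moves from between 0.0841 and 0.238 to between 1.09 and 1.89, past LIPE.

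The other genes of lipid storage were taken as a list of 116 in 11 groups by role, of which 79 passed the filter. Of these, 12 rose, 2 fell and 65 were not called, that is 17.7% called against 15.4% of all rows tested. By direction, 15.2% of the list rose against 7.62% of all rows, and 2.53% fell against 7.8% of all rows. The list was drawn up with earlier results of these data known, so nothing is read from these shares. The adjusted p-values of its genes carry the same limit. The median log2 difference was 0.06 over the 79 genes. Groups did not overlap in CPM for 9 genes with HG above and 3 with HG below, against 6.74% and 6.91% of all rows. In single genes the p-values are edgeR's, adjusted over all rows tested, and 9 of the 14 calls held in all 21 alternative settings and left-out libraries.

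Among lipases, LIPG (endothelial lipase, which cleaves lipoprotein phospholipid) rose from 29.1 ± 6.07 to 51.0 ± 6.19 CPM, by 0.81 log2 units (SE 0.145, adjusted p = 0.00373). It was 1 of only 2 of the 9 genes of the pancreatic and lipoprotein lipase family that passed the filter, and LPL, the lipoprotein lipase, had 0 counts in all libraries. PNPLA3, a droplet protein related to PNPLA2, rose by 0.54 (SE 0.102, adjusted p = 0.00495), while PNPLA6, a phospholipid hydrolase, fell by 0.33 (SE 0.0776, adjusted p = 0.0159). These 2 were the calls among 6 patatin-domain lipases tested. ABHD6, which hydrolyses monoglyceride as MGLL does, rose by 0.36 (SE 0.0828, adjusted p = 0.0140), the only call among 6 genes of its group. LIPA, the lysosomal acid lipase, rose by 0.30 (SE 0.0745, adjusted p = 0.0214), the only call among 8 genes of the acid lipase and neutral hydrolase group. Its call was lost without control_1, HG_2 or HG_3, where the highest adjusted p was 0.0576. CD68, a lysosomal protein used here as a macrophage marker, was higher in HG as well, at between 54.5 and 81.1 CPM in control and between 102 and 143 CPM in HG libraries. Of the other 5 macrophage markers, CSF1R was at between 5.34 and 7.32 CPM in control and between 3.74 and 5.40 CPM in HG libraries (log2 difference -0.43, not called), and PTPRC, CD14, ITGAM and LYZ had at most 8 counts in any library. The summed level of the list was between 60.8 and 88.7 CPM in control and between 106 and 149 CPM in HG libraries. The part of CD68-bearing lysosomes or cells in the LIPA value was not tested.

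In synthesis, 4 of 16 genes tested rose and 0 fell, where 7.62% of all rows tested rose and 7.8% fell. The median log2 difference of these 16 genes was 0.02. AGPAT2 was called lower without control_2 and HG_1 and also with the GC and length trends removed. LPIN2 was called higher in the first of these fits only. LPIN1, a phosphatidate phosphatase that makes the diglyceride used by DGAT1 and DGAT2, rose from 172 ± 23.9 to 254 ± 34.7 CPM, by 0.56 log2 units (SE 0.118, adjusted p = 0.00884). GPAM, the mitochondrial enzyme of the first acylation of glycerol phosphate, rose by 0.48 (adjusted p = 0.0252), GK (glycerol kinase) by 0.55 (adjusted p = 0.0394) and SOAT1, which esterifies cholesterol, by 0.33 (adjusted p = 0.0247). These last 3 calls depended on the libraries used. With a library left out the adjusted p of GPAM reached 0.0637 and its call was lost without control_4, control_5, HG_2, HG_4 or HG_5. SOAT1 reached 0.0642 and was lost without control_1, control_5 or any HG library but HG_1. GK reached 0.102 and was lost without any library but HG_1. The calls of GPAM and SOAT1 were also lost in 2 limma fits on FPKM (adjusted p between 0.0628 and 0.0771), and that of GK in 3 limma fits (0.0806 to 0.134) and with no filter (0.0539).

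ACSL1, which activates fatty acids to acyl-CoA, rose by 0.50 log2 units (SE 0.0921, adjusted p = 0.00454), the only call among 14 genes of fatty acid uptake, binding and activation, while its relative ACSL3 differed by 0.11 (adjusted p = 0.338). Of 8 droplet assembly and droplet-bound proteins tested, HSD17B11, a dehydrogenase found on droplets, rose by 0.22 (adjusted p = 0.0495). Its call was lost when any library other than control_5 and HG_1 was left out, where the adjusted p reached 0.118. It was also lost with RLE factors (0.0514), plain library sizes (0.0515), no filter (0.0606), the GC and length trends removed (0.0983) and the 3 limma fits (adjusted p between 0.0723 and 0.0879), so that it held in 6 of 21 settings. Neither of the 2 other coat proteins tested, none of the 5 genes of hormonal control and neither of the 2 regulators of lipoprotein lipase was called.

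Among 10 transcription factors of lipid storage tested, PPARGC1A, a coactivator of mitochondrial and fatty acid oxidation genes, rose from 24.0 ± 5.47 to 47.3 ± 4.82 CPM, by 0.98 log2 units (SE 0.146, adjusted p = 0.00142). EPAS1, a hypoxia-inducible factor subunit, rose by 0.39 (SE 0.0611, adjusted p = 0.00183). MLXIP, the glucose-sensing factor MondoA, fell by 0.35 (SE 0.0578, adjusted p = 0.00237). The groups of all 3 did not overlap in CPM. HIF1A, also a hypoxia-inducible factor subunit, differed by -0.37 log2 units (885 ± 154 to 685 ± 118 CPM, adjusted p = 0.118). Its groups overlapped and it was not called. It was called lower without control_2 and HG_1 and also with the GC and length trends removed.

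Without control_2 and HG_1, all 14 calls of the list were kept, and calls became more frequent in both directions, in the list and in the whole table. In that fit 15 genes of the list rose (18.99%, against 13.3% of all rows) and 11 fell (13.9%, against 13.8% of all rows). After removal of the GC and length trends, 13 of the 14 were kept (HSD17B11 was lost), 16 rose (20.3%, against 14.5% of rows) and 11 fell (13.9%, against 14.8%). The excess of genes that rose over genes that fell, 12 against 2, was therefore smaller in both of these fits. The 11 that fell were the same genes in both. Besides PNPLA6 and MLXIP they were ABHD12, DAGLB, LMF2, LDAF1, AUP1, FAF2, AGPAT2, FABP5 and HIF1A, named here after their values were seen. In them the log2 differences without these libraries lay between -0.36 and -0.10.

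**Figure D5:**
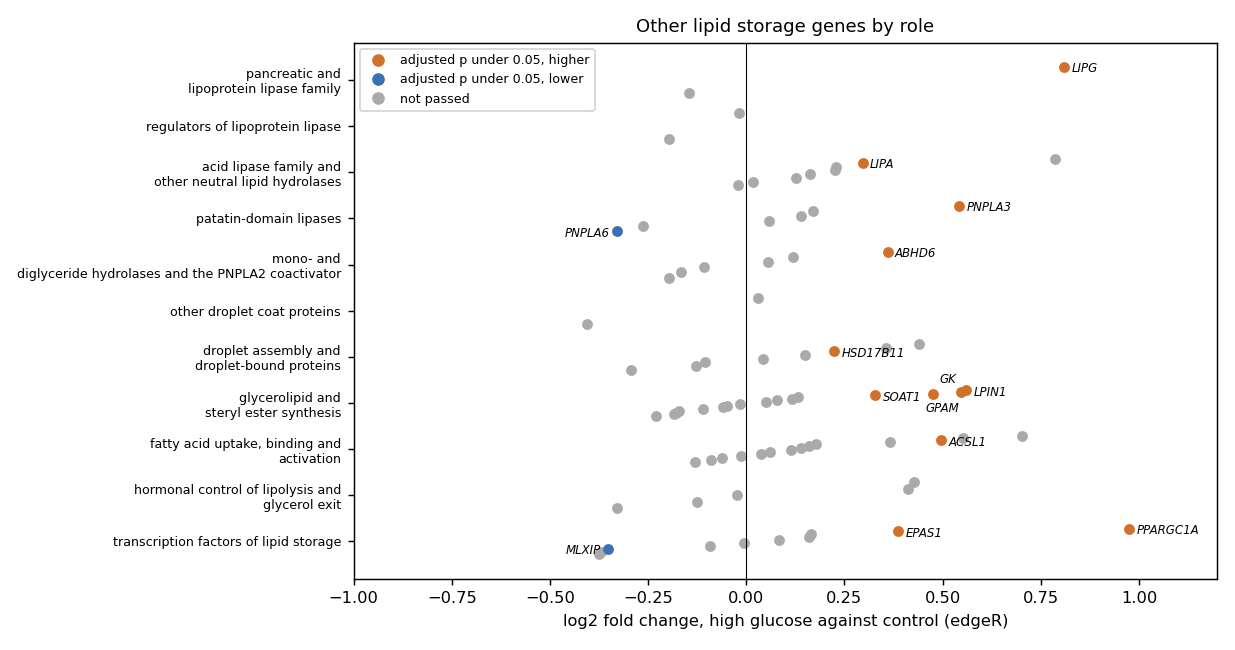
Log2 fold change of high glucose against control (x axis) for the 79 tested genes of the wider lipid storage list, with a row for each of 11 roles and a point for each gene, coloured by edgeR's call at an adjusted p under 0.05. The 12 genes that rose and the 2 that fell are named, from MLXIP at -0.35 to PPARGC1A at 0.98, and 65 grey points were not called.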

How the data were processed

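RNA-seq of 10 ARPE-19 libraries (5 control, 5 high glucose) was analysed from a pair of tables. The authors deposited whole-number read counts per gene without normalization, and FPKM values, in which the authors scaled reads to transcript length and to depth. The submitters' processing notes name fastp 0.20.1, HISAT2 2.2.1 and GRCh38, and the counting program, its strand setting and the annotation are not given in the sources used here. Control columns match the titles of single samples, whereas the columns HG_1 to HG_5 could be tied only to their group. The members and lists were chosen with earlier results of these data known.

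Counts were analysed in R 4.3.3 with edgeR 4.0.16 (filterByExpr, TMM, quasi-likelihood test, Benjamini-Hochberg adjustment over all 14936 rows tested, threshold 0.05). CPM used TMM library sizes, and log2 CPM a prior count of 2. The standard error is that of the edgeR log2 fold change, and 95% intervals are 1.96 standard errors on either side. Positions and GC content come from GENCODE on GRCh38, and promoters from RefSeq. Named genes were the members, every called gene of the wider list, genes that define a role, label checks, the 5 genes most like PNLIPRP3 and its 3 annotated neighbours on each side. As alternatives, TMM was replaced by RLE factors or by plain library sizes, the filter was dropped or raised to 10 counts in every library, and each library was left out in turn. Other alternatives were DESeq2 1.42.0, limma 3.58.1 on FPKM values after adding 1 or 0.1 and taking log2, limma restricted to rows averaging 1 FPKM or more, and a fit without control_2 and HG_1, which earlier work on these data had set apart. Removal of GC and length trends by lowess (span 0.3) was chosen after seeing the data. Scripts were tested on simulated data. Total counts were between 32448991 and 45864176, and on the TMM library sizes 3 counts were between 0.0669 and 0.0912 CPM, for counting error only.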

Additional observations from a re-analysis of the deposited data

Results flagged for a closer look

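In 7 of 46 groups of 5 libraries examined, over the 9 detected members and the called genes of the wider list, the highest or lowest library lay far from the other 4 by Dixon's gap-to-range ratio. Chance alone flags about 1 in 20 such groups, or 2.3 of 46.

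Control_1 was low for PNLIPRP3, at 0.243 CPM against between 0.545 and 0.650 CPM in the other control libraries, for PLIN2, at 84.4 CPM against between 103 and 108 CPM, and for ABHD6, at 12.5 CPM against between 14.5 and 14.8 CPM. It was the lowest control library for 5 of the 9 members.

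PNPLA2 stood high in control_2, at 221 CPM against between 177 and 185 CPM, and in HG_1, at 212 CPM against between 152 and 166 CPM. HG_1 also stood low for LPIN1, at 192 CPM against between 267 and 272 CPM, and for PPARGC1A, at 38.9 CPM against between 47.4 and 50.1 CPM. Without HG_1 the log2 difference of LPIN1 was 0.65 and that of PPARGC1A 1.04.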

How the results depend on the processing

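Without control_2 and HG_1, 1 member was called lower (PNPLA2) in place of 0, the wider list had 15 genes higher in place of 12 and 11 lower in place of 2, and the whole table had 1984 rows higher and 2051 lower in place of 1138 and 1165. With GC and length trends removed, 2 members were called lower (PNPLA2 and HILPDA), 16 genes of the wider list were higher and 11 lower, and 1961 rows were higher and 2004 lower. DESeq2 called 4 genes of the wider list lower. Leaving out a library at a time, the members called lower numbered between 0 and 1 (1 without HG_1), the wider list between 7 and 16 higher (7 without HG_2, 16 without HG_1) and between 2 and 7 lower (7 without HG_1). The log2 difference of PNLIPRP3 was 1.09 on log2(FPKM + 1), where the added 1 is of the size of its values. The cause of the other changes was not tested. Of the other log2 differences of members, 185 moved by no more than the spread between libraries, and 3, those of DGAT2, changed sign. Of the values of the 14 called genes of the wider list, 248 kept their direction and call, and 46 lost the call, with no change of sign. The orders of the members by FPKM were unchanged with the median.

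PNLIPRP3 was below 10 counts in control_1 and its mean FPKM was under 1, so these stricter filters gave no value for it. No paired analysis was possible because the labels number the control samples and letter the high glucose samples. Depth limits PNLIPRP3 in control, with no more than 29 counts, and G0S2, with none.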
